A study of Mus musculus with 6 samples.

Results

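Nodal is a secreted signal of the TGF-β family, and 9 genes of its pathway were followed here in non-differentiated mouse embryonic stem cells (mESCs) with and without *HOXA13* overexpression. They were taken by symbol from the count tables, in which they are 9 of 24393 features, and comprise the ligands *Nodal* and *Gdf3*, the extracellular antagonists *Lefty1*, *Lefty2* and *Cer1*, the coreceptor gene *Tdgf1* (Cripto), the receptor gene *Acvr2b* and the signal transducers *Smad2* and *Smad3*. RNA-seq libraries came from KH2 cells, labelled as embryonic stem cells of strain C57/BL/6, in 3 samples of genotype CONTROL and 3 of genotype HOXA13, and both groups carry the label of no treatment. Cells of both groups were kept with LIF and serum on irradiated 3T3-Swiss albino fibroblasts. By the study's methods, the overexpressing cells carry human *HOXA13* with a FLAG tag, inserted by FLP recombination and switched on by doxycycline, and were selected with hygromycin. Clones were picked and tested with doxycycline, and the methods state that 3 overexpressing and 3 control biological replicates were then selected. Whether the sequenced cultures received doxycycline and whether each replicate is a separate clone are not given in the sources used here. What the control cells carry in place of the insert is not given either. If the replicates share a clone, the p-values measure only the spread between these samples.

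Nodal binds activin receptors, among them the type II receptor encoded by *Acvr2b*, together with the membrane-anchored coreceptor Cripto. The activated receptors phosphorylate Smad2 and Smad3, which join Smad4 and enter the nucleus, where DNA-binding partners such as Foxh1 bring them to target genes. *Nodal*, *Lefty1* and *Lefty2* are themselves known targets, so that the pathway drives both its own ligand and its own antagonists. In the early embryo Nodal acts in the epiblast and is needed for the primitive streak, and embryonic stem cells are known to signal through this pathway by the ligand they make themselves.

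Library totals ranged from 13494135 to 21766589 counts. Levels are given as CPM, the counts after depth scaling with edgeR's TMM factors, and 3 counts, the floor used here, correspond to 0.134 to 0.227 CPM per library. Floors cover counting error only. The feature ENSG00000106031, a human Ensembl identifier that the files do not pair with a symbol, had 6, 0 and 0 counts in the control libraries against 4298, 4177 and 2881 in HOXA13 libraries, while mouse *Hoxa13* had a log2 fold change of 0.51 (SE 0.33, adjusted p = 0.295). The pluripotency gene *Pou5f1* was between 632 and 782 CPM in all 6 libraries, while of the 10 pluripotency markers 4 (*Nanog*, *Sox2*, *Esrrb* and *Klf4*) were higher and 2 (*Fgf4* and the member *Tdgf1*) lower in HOXA13 libraries by edgeR. DESeq2 called 2 higher, without *Esrrb* and *Klf4*, and the *Sox2*, *Esrrb*, *Klf4* and *Fgf4* calls were lost without control replicate 3 or any 1 HOXA13 replicate, and that of *Sox2* also with library size alone. Of the 13846 genes that entered edgeR's quasi-likelihood test, 14.4% of genes were higher and 13.3% lower in HOXA13 libraries at an adjusted p (Benjamini-Hochberg) under 0.05, and in 45.7% the libraries of the groups did not overlap. Higher genes made up 52.0% of the calls with TMM factors and 38.7% with library size alone, which moved the median log2 fold change of all genes to -0.07. Genes of the primitive streak differed among the control libraries. The 8 streak markers together were at 424.8, 40.1 and 186.6 CPM in control replicates 1, 2 and 3 and between 20.5 and 23.4 CPM in HOXA13 libraries, with 5 of 7 tested lower by edgeR, between 0 (limma-voom) and 8 (without control replicate 2) over the alternatives, and *Mesp1* too low to test.

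The genes for the ligand Nodal, its antagonists Lefty1 and Lefty2 and its coreceptor Cripto were lower in HOXA13 libraries, by 2.13- to 3.22-fold, whereas no member was higher. Of the 9 genes, 8 passed the filter on low counts, 4 of these were lower, 0 were higher and 4 did not pass the test, and *Cer1* was not tested. Against that count of 4 of 8, 13.3% of all genes tested were lower and 14.4% higher. No member was higher by edgeR at an unadjusted p under 0.05, nor by DESeq2 or limma-voom after adjustment. The libraries of the groups did not overlap for 5 of the 8 (*Nodal*, *Gdf3*, *Lefty1*, *Lefty2* and *Tdgf1*), beside 45.7% of all genes tested. The median log2 fold change of the 8 was -0.80, and that of all genes tested was close to 0 (3.73e-05). In bulk RNA, fewer cells of a type and less RNA per cell cannot be told apart, and this holds for every value below.

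**Figure D1:**
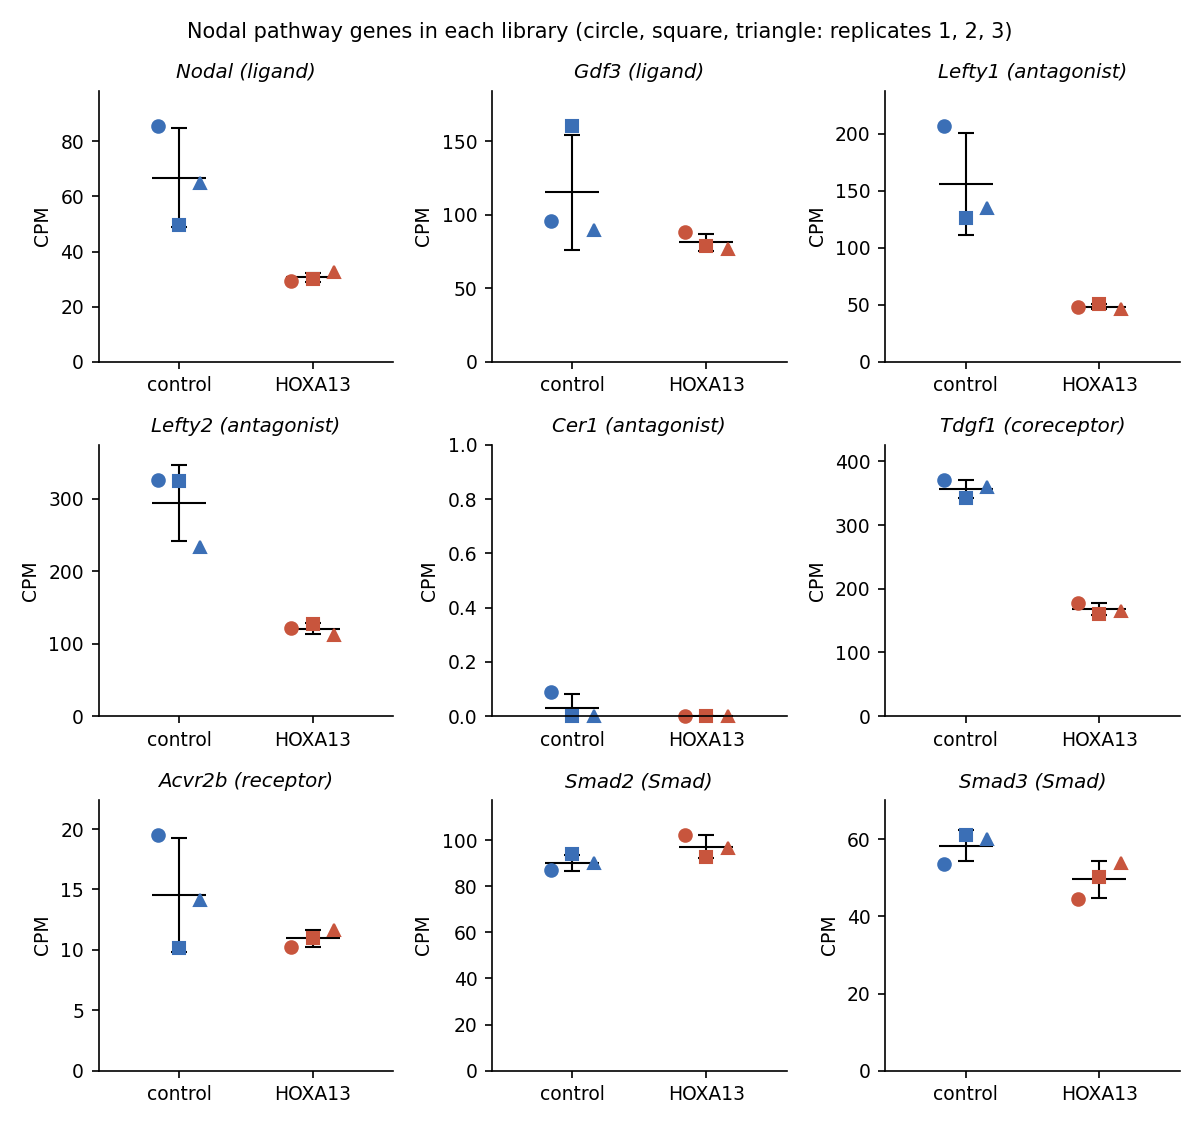
CPM of the 9 genes in each library (points; circle, square and triangle are replicates 1, 2 and 3), with the mean and SD of 3 libraries as bars, and a separate vertical axis from 0 for each gene. The 3 HOXA13 libraries lie below all control libraries for *Nodal*, *Gdf3*, *Lefty1*, *Lefty2* and *Tdgf1*, while *Cer1* is at or near 0 throughout.

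Of the ligands, *Nodal* (chromosome 10 of mm9, 60880720 to 60888086, plus strand) was measured at 85.6, 49.7 and 65.0 CPM in control replicates 1, 2 and 3, and at 29.4, 30.2 and 32.6 CPM in HOXA13 replicates 1, 2 and 3. The HOXA13 libraries lay close together, and the lowest control library stood above all of them. Its mean fell from 66.8 ± 18.0 (SD, n = 3) to 30.7 ± 1.65 CPM (SD, n = 3), a log2 fold change of -1.13 (SE 0.18, 95% interval -1.53 to -0.72, adjusted p = 0.00287). The call held in all 16 alternative fits, with a log2 fold change between -1.31 and -0.91. *Gdf3* (chromosome 6, 122555421 to 122560105, minus strand), which encodes a related ligand that can act through the same receptors, was at 96.0, 160.6 and 89.7 CPM in control and at 88.0, 79.0 and 76.5 CPM in HOXA13 libraries. Control replicate 2 was far above the other control libraries, whose values were close to those of HOXA13 replicate 1. Parts of its transcript, at most 127 bases long, match 871 other places in the genome. The log2 fold change of *Gdf3* was -0.50 (SE 0.20, 95% interval -0.97 to -0.03) and did not pass (adjusted p = 0.103). Without control replicate 1 it did (-0.62, adjusted p = 0.0361), as it did with DESeq2 (-0.51, adjusted p = 0.039), and without control replicate 2 the change was -0.20 (adjusted p = 0.0904).

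The Lefty proteins are secreted inhibitors that bind Nodal and its coreceptor, and both their genes fell. The difference of their changes from those of the other members was not tested. *Lefty1* (chromosome 1, 182865153 to 182868531, plus strand) was at 206.9, 126.2 and 134.6 CPM in control and at 47.7, 50.8 and 46.6 CPM in HOXA13 libraries. Every control library was above every HOXA13 library, with control replicate 1 the highest. Its log2 fold change was -1.69 (SE 0.18, 95% interval -2.10 to -1.28, adjusted p = 0.000456), or 3.22-fold lower. *Lefty2* (chromosome 1, 182823239 to 182829234, plus strand) was at 325.5, 324.3 and 233.0 CPM in control and at 121.9, 127.8 and 112.5 CPM in HOXA13 libraries. Here the lowest control library was replicate 3 and not, as for *Nodal* and *Lefty1*, replicate 2. The log2 fold change was -1.28 (SE 0.13, 95% interval -1.58 to -0.99, adjusted p = 0.000371), or 2.44-fold lower. Both calls held in every alternative fit that kept the genes apart, with a highest adjusted p of 0.00817 for *Lefty1* and 0.00654 for *Lefty2*. In the remaining alternative fit their counts were summed, and the sum passed.

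The Lefty genes lie 41.9 kb apart, start to start, on a chromosome where the median of 739 placed and tested genes was a log2 fold change of 0.38. With each chromosome centred in each library, the log2 fold change was -2.07 for *Lefty1* and -1.65 for *Lefty2*. They are also near-identical in places. Of the 75-base windows of their annotated transcripts, the length of a read, 173 are shared, which is 11.2% of those of *Lefty1* and 7.21% of those of *Lefty2*, and the longest identical stretch is 140 bases. How the counting treated reads that match both genes is not given in the sources used here, so each single level is uncertain to that extent. The sum of both genes, to which the sharing between them makes no difference if such reads were kept, had a log2 fold change of -1.41 (SE 0.13, adjusted p = 0.000206). *Cer1* (chromosome 4, 82527655 to 82531052, minus strand), the gene of the Nodal antagonist Cerberus, was almost undetected, with counts of 2, 0 and 0 in control and of 0 in each HOXA13 library. Both groups were under the floor of 3 counts per library, so a difference was not detectable at this depth.

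*Tdgf1* (chromosome 9, 110842114 to 110848662, minus strand) encodes Cripto, without which Nodal signals poorly through its receptors. Of the 4 lower genes it varied least among the control libraries, at 370.3, 342.0 and 359.5 CPM in control and at 178.1, 159.8 and 165.1 CPM in HOXA13 libraries. The gap between the groups, from 178.1 to 342.0 CPM, was many times the spread within each, 14.3 CPM in control and 9.45 CPM in HOXA13 libraries (SD, n = 3). The log2 fold change was -1.09 (SE 0.066, 95% interval -1.24 to -0.94, adjusted p = 3.03e-05), and it stayed between -1.16 and -1.06 in all 16 alternative fits. A stretch of 1009 bases on chromosome 16 is 96.7% identical to its transcript, so reads of both places could be exchanged.

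The promoters of the coreceptor and ligand genes are shown because both genes were lower in HOXA13 libraries. They are the 250 bases before the start of each gene, from RefSeq on GRCm38.p6, chr9:110946159-110946408 on the minus strand for *Tdgf1* and chr10:61417722-61417971 on the plus strand for *Nodal*, written 5′ to 3′ along the gene, with matches to searched letters in capitals.
Tdgf1: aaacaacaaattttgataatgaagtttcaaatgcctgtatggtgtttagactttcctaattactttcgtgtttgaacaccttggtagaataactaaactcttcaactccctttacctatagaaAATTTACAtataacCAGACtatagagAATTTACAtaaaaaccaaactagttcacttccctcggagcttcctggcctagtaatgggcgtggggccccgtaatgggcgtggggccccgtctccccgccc
Nodal: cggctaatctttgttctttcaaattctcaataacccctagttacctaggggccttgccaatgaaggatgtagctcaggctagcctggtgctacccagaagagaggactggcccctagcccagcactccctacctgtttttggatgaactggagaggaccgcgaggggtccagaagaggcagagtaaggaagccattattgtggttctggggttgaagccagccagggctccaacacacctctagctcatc
The following 3 sets of letters were searched on both strands: AATNNACA for Foxh1, CAGAC for Smad proteins and CAATAAA for HOX13-type factors. The *Tdgf1* promoter holds the Foxh1 letters at 127 and 101 bases before the start and, between them, the Smad letters at 113. These letters occur in 10.9% and 42.2% of all 32851 promoters of this length in the table. The *Nodal* promoter holds none of the 3 sets in its 250 bases, and the rest of the gene and its surroundings were not searched. The HOX13-type letters, present in 4.2% of all promoters, are in none of the 5 member promoters found in the table (*Nodal*, *Cer1*, *Tdgf1*, *Acvr2b*, *Smad3*). Of the other 3 of these, *Cer1* holds the Smad letters at 213 and *Acvr2b* at 233 bases before the RefSeq start, and *Smad3* holds none. The RefSeq start of *Acvr2b* lies 266 bases upstream of the mm9 gene start given here. No entry was used for *Lefty1*, *Lefty2*, *Gdf3* and *Smad2*.

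**Figure D2:**
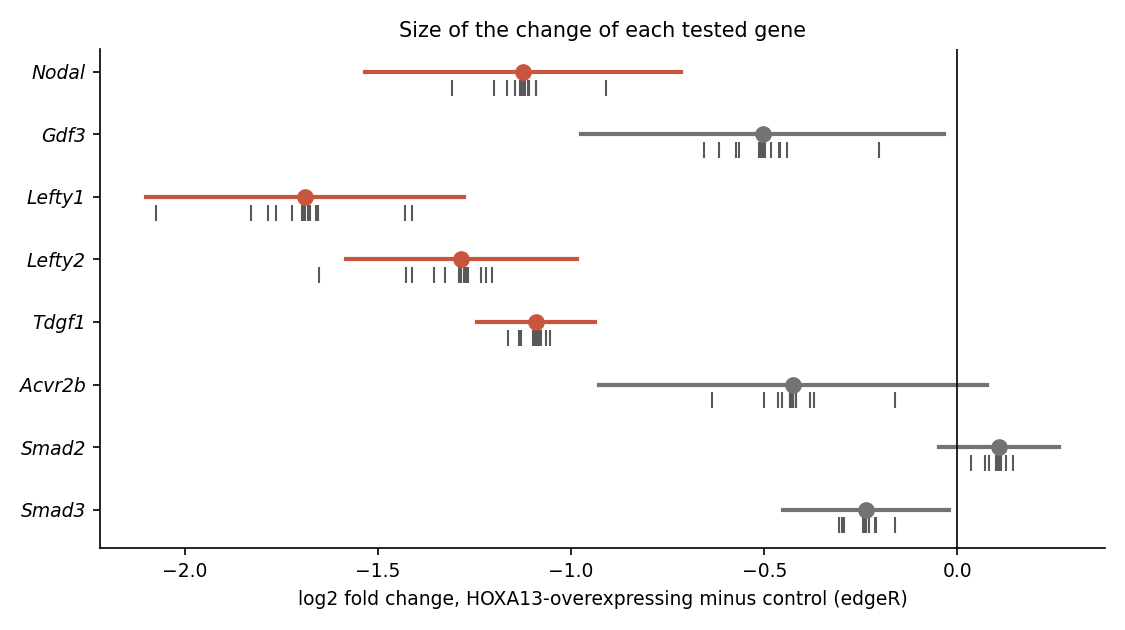
Log2 fold change of the 8 tested genes, HOXA13-overexpressing minus control, from edgeR (points) with its 95% interval (lines), coloured where the adjusted p was under 0.05, and the value in each of the 16 alternative fits as ticks below. *Nodal*, *Lefty1*, *Lefty2* and *Tdgf1* stay at or below -0.91 in every fit, and *Smad2* stays between 0.03 and 0.14. In the fit of the summed Lefty counts, both Lefty genes carry the tick of their sum.

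Neither the receptor gene nor the Smad genes passed the test. *Acvr2b* (chromosome 9, 119311562 to 119342619, plus strand), the type II receptor gene, was at 19.5, 10.1 and 14.1 CPM in control and at 10.2, 11.0 and 11.6 CPM in HOXA13 libraries. The control values enclosed those of the HOXA13 libraries. Its log2 fold change of -0.43 (SE 0.22, 95% interval -0.93 to 0.08) did not pass (adjusted p = 0.186). It passed without control replicate 2 (-0.63, adjusted p = 0.0128), and without control replicate 1 it was -0.16 (adjusted p = 0.474).

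*Smad2* (chromosome 18, 76401234 to 76465385, plus strand), which carries the signal from the receptors to the nucleus, was at 86.9, 93.8 and 90.0 CPM in control and at 102.3, 92.6 and 96.6 CPM in HOXA13 libraries. The groups overlapped, the log2 fold change was 0.11 (SE 0.068, adjusted p = 0.278), and its 95% interval ran from -0.05 to 0.26. A fall of the size seen for *Nodal* or *Tdgf1* is thus outside the interval for *Smad2*. *Smad3* (chromosome 9, 63494574 to 63605801, minus strand), the closely related transducer, was at 53.7, 61.1 and 60.1 CPM in control and at 44.5, 50.2 and 53.9 CPM in HOXA13 libraries. Its groups overlapped only at their edges, between 53.7 CPM in control replicate 1 and 53.9 CPM in HOXA13 replicate 3. The log2 fold change of -0.24 (SE 0.094, 95% interval -0.45 to -0.02) did not pass (adjusted p = 0.097), but passed without control replicate 1 (-0.29, adjusted p = 0.0307) and with library size alone (-0.31, adjusted p = 0.0429).

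To compare levels between genes, CPM were divided by the exon length in kb. In control libraries *Tdgf1* was the most abundant member at 185.6 ± 7.43 CPM per kb (SD, n = 3), above all values of the next gene. *Lefty2* (112.7 ± 20.3), *Lefty1* (88.7 ± 25.2) and *Gdf3* (54.3 ± 18.5) followed, and the libraries of neighbours in this order overlapped. *Nodal*, at 31.9 ± 8.61 CPM per kb, lay below each *Gdf3* value and overlapped *Smad2* at 25.4 ± 0.966. *Smad3* (10.5 ± 0.728) and *Acvr2b* (8.31 ± 2.69) were lowest and overlapped. Thus *Tdgf1*, *Lefty1* and *Lefty2* were each more abundant per length than *Nodal* in every control library.

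In HOXA13 libraries *Tdgf1* (87.1 ± 4.91 CPM per kb) and *Lefty2* (46.2 ± 2.96) kept the first places. *Gdf3* (38.2 ± 2.83) stood above *Lefty1* (27.5 ± 1.24), and *Smad2* (27.4 ± 1.38) above *Nodal* (14.7 ± 0.788), each without overlap, whereas *Lefty1* and *Smad2* overlapped. *Smad3* (8.94 ± 0.858) and *Acvr2b* (6.24 ± 0.410) came last and did not overlap there.

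**Figure D3:**
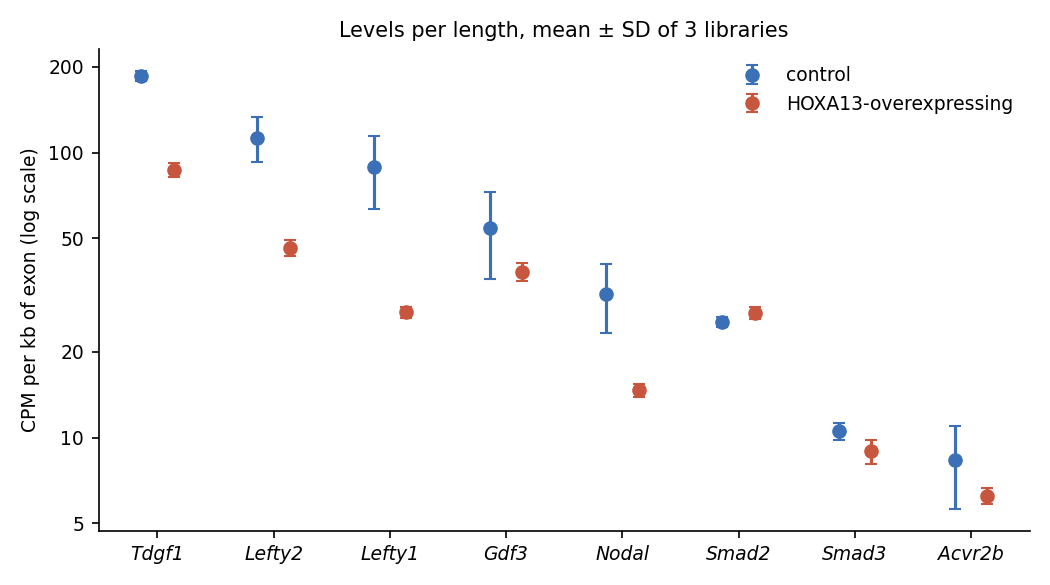
Level per exon length of the 8 genes above the filter on low counts, as CPM per kb on a log axis, with points for the mean and bars for the SD of 3 control and 3 HOXA13-overexpressing libraries. *Tdgf1* is highest in both groups, and *Lefty1*, at 88.7 in control and 27.5 in HOXA13 libraries, moves from above to below *Gdf3*.

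Ratios of counts within a library, which need no scaling between libraries, show how the members moved relative to each other, and are given as descriptions without a test. The summed Lefty counts per *Nodal* count were 6.22, 9.06 and 5.66 in control and 5.77, 5.92 and 4.89 in HOXA13 libraries. The groups overlapped, with control replicate 2 the highest. *Tdgf1* counts per *Nodal* count were 4.32, 6.88 and 5.53 in control and 6.06, 5.29 and 5.07 in HOXA13 libraries, with HOXA13 values inside the control range. *Tdgf1* counts per *Gdf3* count were 3.86, 2.13 and 4.01 in control and 2.02, 2.02 and 2.16 in HOXA13 libraries, where control replicate 2 lay among the HOXA13 values. Within the Lefty pair, *Lefty1* made up 38.9%, 28.0% and 36.6% of counts in control and 28.1%, 28.4% and 29.3% in HOXA13 libraries. Of these 5 ratios, the last, between the Smads, gave groups without overlap. There were 0.618, 0.652 and 0.668 *Smad3* counts per *Smad2* count in control and 0.435, 0.542 and 0.558 in HOXA13 libraries. The levels of 45.7% of all genes tested did not overlap either, and neither Smad gene passed the test.

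The members differed in how they varied among the control libraries. The coefficient of variation over the 3 control libraries was 4.0% for *Tdgf1*, 3.80% for *Smad2* and 6.92% for *Smad3*. It was 18.0% for *Lefty2*, 27.0% for *Nodal*, 28.5% for *Lefty1*, 32.4% for *Acvr2b* and 34.0% for *Gdf3*. Over the HOXA13 libraries it was between 4.52% and 9.60% for all 8. *Nodal* followed the order of the streak markers, highest in control replicate 1 and lowest in control replicate 2. Relative to the mean of the HOXA13 libraries, on the log2 scale, *Nodal* was higher by 1.48, 0.69 and 1.08 in control replicates 1, 2 and 3. The streak gene *T* (brachyury) was higher by 6.47, 2.37 and 5.39 in the same libraries, and *Eomes* by 2.61, 0.42 and 1.81. *Lefty1* (2.10, 1.38 and 1.48) and *Acvr2b* (0.83, -0.11 and 0.36) had the same order. *Gdf3*, with 0.24, 0.98 and 0.14, and *Lefty2*, with 1.43, 1.43 and 0.95, did not. *Tdgf1* was higher by 1.14, 1.03 and 1.10, in the same order but nearly alike in each control library. *Smad2* (-0.16, -0.05 and -0.11) and *Smad3* (0.12, 0.30 and 0.28) had the reverse order. The streak markers thus moved with the groups and, for some members, with the control library, and their part in the results was not tested. In control replicate 2, whose streak markers summed to 40.1 CPM and so lay above the 20.5 to 23.4 CPM of the HOXA13 libraries, *Nodal*, *Lefty1*, *Lefty2* and *Tdgf1* were each above all HOXA13 libraries.

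**Figure D4:**
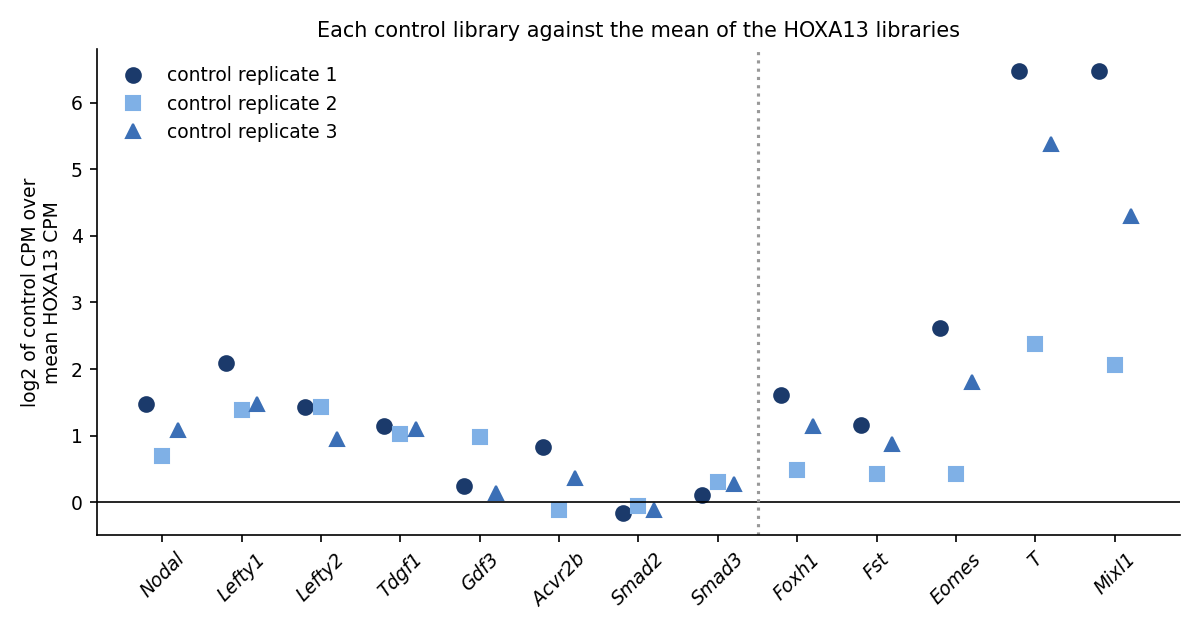
Log2 of the CPM in each control library over the mean CPM of the 3 HOXA13-overexpressing libraries, for the 8 tested members (left of the dotted line) and for 5 other pathway or streak genes, with 1 symbol per control replicate. *Tdgf1* lies between 1.03 and 1.14 in all 3, whereas *T* and *Mixl1* reach 6.47 in replicate 1 and are at 2.37 and 2.07 in replicate 2.

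The gene whose pattern over the 6 libraries was most like that of *Nodal*, by the root mean square difference of log2 CPM centred on each gene's mean, was *Cdkn1c*, the gene of a cell cycle inhibitor, with a difference of 0.052. *Fkbp11* (0.067), *Cachd1* (0.079), *Jag2* (0.079) and *Lpar2* (0.083) followed, among 13845 genes ranked. Of the other members, *Tdgf1* was nearest at rank 169 (0.21), then *Lefty2* at 572 and *Lefty1* at 577, with *Acvr2b* at 988. *Smad3*, *Gdf3* and *Smad2* ranked 3378, 5208 and 8071.

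Among 52 further genes of the pathway, 48 were tested, of which 6 were higher and 14 lower, with a median log2 fold change of -0.10. Of all genes tested, 14.4% were higher and 13.3% lower, shares that stand beside each list count here and below. Of 7 other tested ligands of the Activin/Nodal branch 1 was lower, and 0 were higher in edgeR, DESeq2 or limma-voom (2 by edgeR at an unadjusted p under 0.05, *Gdf11* and *Tgfb3*), while edgeR with the replicate block called *Tgfb3* higher (0.32, adjusted p = 0.0425). *Tgfb1*, the gene of the founding ligand of the family, had a log2 fold change of -0.73 (SE 0.16, adjusted p = 0.0136), lost without HOXA13 replicate 1 or 2. *Inhbb* was called lower without control replicate 1 (-0.49, adjusted p = 0.0246) and with each chromosome centred (-0.73, adjusted p = 0.00395). *Gdf1* had 0 counts in all libraries. Of 6 other extracellular antagonists, 3 were lower and 0 higher, also by DESeq2, by limma-voom and at an unadjusted p under 0.05 in edgeR, though *Fstl1* was called higher without control replicate 2 (0.37, adjusted p = 0.0488). *Fst*, which encodes the activin-binding protein follistatin, fell the most (-0.85, SE 0.16, adjusted p = 0.00634), before *Nomo1* (-0.42, lost without HOXA13 replicate 1) and *Ncln* (-0.38), whose products form a complex that dampens Nodal signaling.

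Among 5 other receptors and coreceptors tested, *Acvr1b*, the gene of the type I receptor that pairs with Cripto, rose (0.54, SE 0.085, adjusted p = 0.00269), and the other 4 did not pass. Of these, *Tgfbr2* was called lower without control replicate 1 (-0.27, adjusted p = 0.0263) and *Tgfbr3* without control replicate 2 (-0.59, adjusted p = 0.00665). *Cfc1*, the gene of the Cripto relative Cryptic, and *Acvr1c* were too low to test, with at most 8 and 4 counts in a library. None of the 3 proprotein convertases, *Furin*, *Pcsk5* and *Pcsk6*, which cleave the Nodal precursor, passed in edgeR (adjusted p between 0.13 and 0.538), where 0 had an unadjusted p under 0.05, in DESeq2 or in limma-voom, but *Pcsk6* was called higher without control replicate 2 (0.69, adjusted p = 0.000383). Of 9 Smad partners, *Foxh1* fell with *Nodal*, from 72.1, 33.1 and 52.2 CPM in control to 22.0, 23.5 and 25.5 CPM in HOXA13 libraries (-1.16, SE 0.24, adjusted p = 0.0102), lost without HOXA13 replicate 1. *Kdm6b* was also lower (-0.34), a call lost without control replicate 3, without any 1 of the HOXA13 replicates and with the replicate block. *Zfyve9*, the anchor that holds Smads at the receptor, rose (0.49, lost without HOXA13 replicate 2), as did *Ep300* (0.24, lost without HOXA13 replicate 2 or 3). *Crebbp* was called higher without control replicate 1 (0.36, adjusted p = 0.0112). *Smad4*, the common partner of Smad2 and Smad3, had a log2 fold change of -0.11 (adjusted p = 0.211).

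The intracellular inhibitors split, with 3 of 10 higher and 3 lower. *Smad7*, which blocks the receptors, rose from 70.2, 109.2 and 86.4 CPM in control to 171.5, 178.8 and 192.4 CPM in HOXA13 libraries (1.03, SE 0.14, adjusted p = 0.00168). *Skil*, whose product SnoN holds Smads inactive, fell from 175.5, 146.6 and 174.5 CPM to 96.5, 96.5 and 98.7 CPM (-0.77, SE 0.081, adjusted p = 0.000455). The groups did not overlap for either gene, as for 45.7% of all genes tested. *Ppm1a* was higher by 0.32 on the log2 scale and *Tgif2* by 0.45, and the ubiquitin ligase genes *Smurf1* (-0.25) and *Smurf2* (-0.29) were lower. The *Tgif2*, *Smurf1* and *Smurf2* calls were lost without any 1 of the HOXA13 replicates, and that of *Smurf1* also without control replicate 3. The replicate block ended the *Smurf1* and *Smurf2* calls, centring each chromosome that of *Smurf2* and library size alone that of *Tgif2*. With library size alone, 2 of the 10 were higher and 5 lower, *Ski* and *Pmepa1* being added. *Pmepa1*, also a target, was called lower as well with the replicate block and without control replicate 1 or 2 (adjusted p between 0.0228 and 0.0457 over these 4 fits).

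Of 11 tested targets of Nodal and Smad2, 6 were lower and 1, *Smad7*, was higher, with a median log2 fold change of -1.62. Several of these are also streak markers. *Fgf8* had 961, 43 and 365 counts in the control libraries against 1, 1 and 0 in HOXA13 libraries, at least 118-fold lower against the floor of 3 counts per library, or at least 58.9-fold without control replicate 1. *T* (-5.53), *Mixl1* (-5.24), *Eomes* (-1.87) and *Skil* were also lower. Without control replicate 1 the log2 fold change was -4.60 for *T*, -3.61 for *Mixl1* and -1.29 for *Eomes*. With limma-voom 2 targets were lower, and *T*, *Fgf8*, *Mixl1* and *Eomes* were lost. Without any 1 of the HOXA13 replicates *Mixl1* and *Eomes* were lost too, the latter also without control replicate 3, and without control replicate 2 the count rose to 10, with *Gsc*, *Foxa2* and *Pmepa1* among those added. *Lhx1*, with 269, 2 and 36 counts in control and 0, 0 and 1 in HOXA13 libraries, did not pass the filter on low counts in the main fit. With DESeq2 and with no filter on low counts 7 targets were lower, *Lhx1* being added in both, as it was without control replicate 2.

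**Figure D5:**
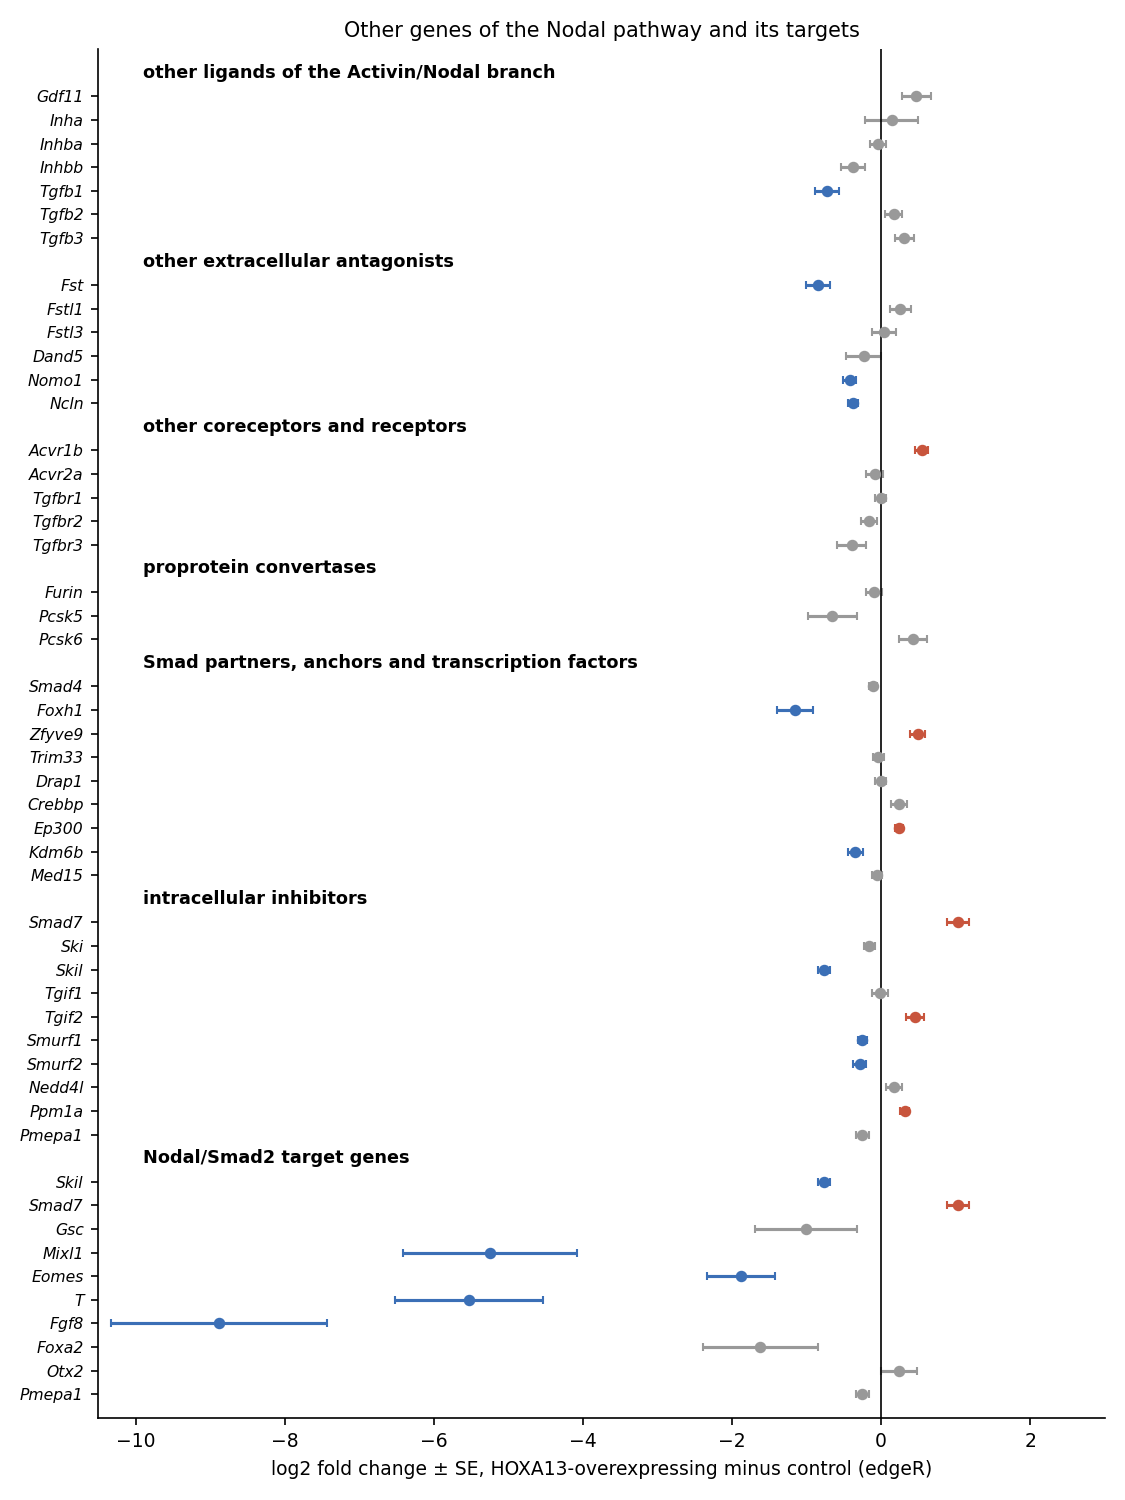
Log2 fold change ± SE, HOXA13-overexpressing minus control, of other tested pathway genes by role (edgeR), in blue where lower and in red where higher at an adjusted p under 0.05 and in grey otherwise. *Acvr1b* and *Smad7* lie to the right of 0 and the streak genes among the targets far to the left, where the fitted value of *Fgf8* depends on the prior count because its HOXA13 libraries are at or under the floor.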

How the data were processed

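RNA-seq of 6 libraries was analysed, 3 control and 3 HOXA13, grouped by the sample labels. The authors made stranded libraries, mapped 75-base reads to mm9 with TopHat2 (2.0.14 by the submitters' processing notes) and deposited raw HTSeq (0.6.1p1) counts per gene and library, without normalization or pooling. The annotation, counting mode and strand setting are not given in the sources used here. The authors tested with DESeq2 at a q-value of 0.05.

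Here, edgeR 4.0.16 in R 4.3.3 was used with filterByExpr (minimum count 10, minimum total 15), TMM factors and the quasi-likelihood test without covariates, Benjamini-Hochberg adjustment over all 13846 genes kept and a threshold of 0.05. Fold changes use the prior count 0.125. Standard errors were derived from the fold change and its F statistic. The code was tested on simulated counts. The members and gene lists (7 pathway and 5 marker lists) were chosen with earlier results of these data known. All members are named, and from each pathway list the genes past the threshold, up to 4 in each direction, and those too low to test. *Eomes*, *Smad4*, *Gdf11*, *Tgfb3*, the convertases, genes called only under an alternative, the marker genes and the neighbouring genes are named beyond that rule, after their values were seen. Values of 1 lower target gene and 1 neighbouring gene are not reported here. The 16 alternatives were RLE factors, library size alone, other filters on low counts, a replicate block, robust estimation, DESeq2 1.42.0, limma-voom (limma 3.58.1), each chromosome centred, the Lefty counts summed and each of the 6 libraries left out. Positions are from GENCODE on NCBIM37 (mm9). Sequence matches used BLAST 2.17.0, counting those of at least 75 bases and 95% identity outside the gene. Promoters are RefSeq's on GRCm38.p6, with 5 of 9 members matched. The replicate numbers were not used to pair the samples, except in the replicate block.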

Additional observations from a re-analysis of the deposited data

How the results depend on the processing

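The counts of members (4 lower, 0 higher) stayed between 3 and 6 lower, with 0 higher, over the 16 alternatives, and *Nodal*, *Lefty1*, *Lefty2* and *Tdgf1* passed in each, with the Lefty genes as 1 summed feature in the alternative that gave 3. When each library was left out in turn, the genes higher among all tested numbered between 1134 and 2428 and the lower ones between 904 and 2579. Both counts were lowest without a HOXA13 replicate. The labels only number the replicates, and whether same-numbered samples belong together is not given in the sources used here. The deviations of same-numbered libraries from their group means had correlations of -0.015, -0.045 and 0.018. With the replicate number as a block, 1696 genes were higher and 1476 lower, and 4 members were lower. Of the other pathway genes tested in the main fit, 13 lost and 11 gained a call under at least 1 alternative. *Lhx1*, not tested there, gained one too, and among the members *Gdf3*, *Acvr2b* and *Smad3* did. No tested direction of a member or called pathway gene reversed. The cause was not tested. With 3 libraries a group, an interval such as that of *Acvr2b* (-0.93 to 0.08) holds changes larger than that called for *Skil* (-0.77). Depth limits *Cer1* and *Acvr1c*, whose counts are near 0.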

Other observations

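The tested genes nearest to the members, up to 2 on each side, were also compared, and moved in different directions. *Tmem63a*, 7.32 kb beyond the start of *Lefty1*, had a log2 fold change of -0.70 (edgeR's adjusted p = 0.00698), on a chromosome where the median was 0.38. *Ephx1*, 41.1 kb beyond it, had a log2 fold change of 0.07 (adjusted p = 0.792). On the other side of *Lefty2*, *H3f3a* was higher by 0.42 (adjusted p = 0.0389) and *Acbd3* by 0.25 (adjusted p = 0.0391). Beside *Tdgf1*, *Lrrc2* (-0.84, adjusted p = 0.00816) and *Als2cl* (-0.54, adjusted p = 0.00682) were lower, while *Prss46* (0.06, adjusted p = 0.939) and *Lrrfip2* (-0.23, adjusted p = 0.138) did not pass. Beside *Gdf3*, the germ cell and pluripotency genes *Dppa3* (1.17, adjusted p = 0.000395) and *Nanog* (0.57, adjusted p = 0.000951) were higher, opposite in sign to *Gdf3*. *Eif4ebp2*, 14.5 kb from *Nodal*, was lower by 0.29 on the log2 scale (adjusted p = 0.02). *Smad6*, which encodes an inhibitory Smad and is the nearest tested neighbour of *Smad3* on its higher-coordinate side, rose by 1.85 (adjusted p = 2.14e-05).

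Markers of pluripotent and other cell types did not all move one way, and which cells their RNA came from was not tested. Of 10 pluripotency markers, 4 were higher (1 to 4 over the alternatives) and 2 lower (1 to 3), and their summed level was 2506, 3543 and 2919 CPM in control and 3456 to 3565 CPM in HOXA13 libraries. One of the lower ones is *Tdgf1* itself. Of 8 tested primitive endoderm markers, *Gata6* (1.80) and *Sox7* (2.14) were higher and *Pdgfra* (-0.80) lower. Over the alternatives 1 to 2 were higher, with *Sox7* lost without any 1 HOXA13 replicate, and 0 to 4 lower, with *Pdgfra* lost without HOXA13 replicate 1 or 2 or control replicate 3 and *Gata4*, *Foxa2* and *Amn* added without control replicate 2. The markers had sums of 41.8 to 45.2 CPM in control and 50.9 to 52.9 CPM in HOXA13 libraries. Of 6 tested trophoblast markers, *Tfap2c* (2.05), *Krt7* (1.22) and *Gata3* (1.57) were higher and *Krt18* (-2.39, lost without HOXA13 replicate 1 or 3) lower, with 3 to 4 higher and 0 to 2 lower over the alternatives (2 without control replicate 2), and the sums were 159.7, 77.0 and 113.0 CPM in control and 253.5 to 259.5 CPM in HOXA13 libraries. Of 15 markers of feeder fibroblasts, 1 (*Fbln1*, -1.04) was lower and 0 were higher (1 by edgeR at an unadjusted p under 0.05 and 0 by limma-voom). *Col3a1* was called higher by DESeq2, without control replicate 1 or 2 and, with *Col1a1*, with the replicate block. *Thy1* without control replicate 1 and *Twist2* with each chromosome centred were called lower. The feeder markers summed to 5480, 7945 and 7916 CPM in control and to between 7267 and 9053 CPM in HOXA13 libraries. The part of any of these cell types in the values of the Nodal pathway genes was not tested.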
